A study of Homo sapiens with 12 samples.

Results

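The 10 genes described here encode 3 cytokines of the interleukin-6 (IL-6) family (IL6, IL11 and LIF), 4 receptor chains (IL6R, LIFR, OSMR and IL6ST), the kinase JAK1, the transcription factor STAT3 and the feedback inhibitor SOCS3. They were taken by gene symbol and were found in both expression tables of the study, which held 16760 genes in the compound experiment, 17442 in the siRNA experiment and 16426 in both. Gene expression was measured by RNA sequencing of 12 libraries from the human non-small cell lung cancer lines NCI-H1975 and HCC827, both known as EGFR-mutant lung adenocarcinoma lines. In the compound experiment each line had 1 library with DMSO, 1 with the small molecule 18E at 2.5 µM and 1 with 18E at 5 µM, the treated ones after 24 h. In the siRNA experiment each line had 1 library with the control siRNA siCON and 1 with each of the siRNAs siDYN-1 and siDYN-2, the latter after 48 h. The series title names the protein LIC1 as the target of the molecule, the product of DYNC1LI1, and the sample labels do not give the gene that siDYN is aimed at or the time of the control libraries.

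IL-6 family cytokines are secreted proteins that signal through receptor complexes sharing the chain gp130, the product of IL6ST. IL-6 and interleukin-11 first bind a private receptor (IL6R or IL11RA) and then gp130, whereas LIF assembles gp130 with LIFR, and oncostatin M assembles gp130 with OSMR or LIFR. The complexes activate JAK kinases and STAT3, and STAT3 induces SOCS3, which binds gp130 and JAK and dampens the signal. In lung adenocarcinoma cells the pathway is known for autocrine signalling by IL-6 and as part of inflammatory responses.

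The ligands IL6 and IL11 were higher with 18E at 5 µM in both lines and with siDYN-2 in both lines. The private receptor IL6R was also higher in these 4 libraries, at 192% to 243% of its control. The shared chain IL6ST was at 22.4% to 48.8% of its control in the 4 siDYN libraries, but at 84.7% to 116% of it in the 4 libraries with 18E. SOCS3 was 50.9 FPKM in HCC827 with 5 µM against 9.56 FPKM with DMSO, while in NCI-H1975 it was 10.6 FPKM in both.

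The upstream sequences of IL6 and IL11 are shown because these ligands had the largest fitted changes of the 10 genes at 5 µM of 18E and with siDYN-2. They come from the RefSeq promoter table (GRCh38.p14), which held 9 of the 10 members, and are written 5′ to 3′ on the strand of the gene. IL6 lies on the plus strand (chr7:22726950-22727146, 197 bases that overlap no exon annotated in GENCODE 29). The GENCODE gene starts further upstream, at 22725884, so these bases lie within its span. IL11 lies on the minus strand (chr19:55370464-55370713, the 250 bases before its start). Capitals mark the matches to 6 motifs searched on both strands.
IL6: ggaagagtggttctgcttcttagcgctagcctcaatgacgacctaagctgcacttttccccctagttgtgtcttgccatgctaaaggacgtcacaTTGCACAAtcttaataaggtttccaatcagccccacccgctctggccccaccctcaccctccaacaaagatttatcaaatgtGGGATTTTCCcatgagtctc
IL11: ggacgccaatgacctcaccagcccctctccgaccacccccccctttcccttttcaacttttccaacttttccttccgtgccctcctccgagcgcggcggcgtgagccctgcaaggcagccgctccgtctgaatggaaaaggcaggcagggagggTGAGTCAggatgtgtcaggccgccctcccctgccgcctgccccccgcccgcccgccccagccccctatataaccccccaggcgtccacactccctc

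In IL6 the capitals mark a C/EBP match, TTGCACAA, from -155 to -148 relative to the RefSeq start, and an NF-kB match, GGGATTTTCC, from -73 to -64. In IL11 they mark an AP-1 match, TGAGTCA, from -96 to -90. The STAT motif was searched with the letters TTCNNNGAA and the cyclic AMP response element (CRE) with TGACGTCA. For the C/EBP motif the letters were TTGCNNAA. The AP-1 motif was searched with the letters TGANTCA. The promoter element of the general transcription machinery, the TATA box, was searched with the letters TATAAA, and the NF-kB consensus is given by its name alone. The printed matches did not overlap one another. Among 35116 windows of 250 bases in the table, 9.05% held the C/EBP motif, 9.96% the NF-kB motif, 6.57% the AP-1 motif, 6.57% the STAT motif, 1.65% the CRE and 10.7% the TATA box. The 2 SOCS3 windows held none of these motifs. They span 78360926 to 78361175 and 78359668 to 78359917. Neither holds the bases just before the GENCODE start of SOCS3 (78360077, minus strand), so that stretch was not searched. STAT matches among the members were found in 2 of the 3 LIFR windows.

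Values are FPKM (fragment counts divided by transcript length and by library size) as the authors deposited them, so a level can be compared between genes within a table but not between the separately normalized tables. Read totals are not part of the tables, so the depth behind each value is unknown and no counting interval is given. The summed FPKM of a library ran from 486409 to 685680, and 534 to 2212 genes were listed at 0. Changes are differences of log2(FPKM + 1) between a treated library and the control library of its own line, a scale that understates the change of low genes. With 1 library per line and treatment the limma test rests on how well the lines, or the lines and siRNAs, repeat each other. Nothing in the labels says that a line was cultured more than once. Both 18E doses share the DMSO library of their line, and both siRNAs share the siCON library. Where 3 levels of a gene follow each other, they stand in the order DMSO, 2.5 µM, 5 µM or in the order siCON, siDYN-1, siDYN-2.

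All 5 epithelial marker genes of lung carcinoma were at 27.5 FPKM or more in every library, with a summed level of 2269 to 8296 FPKM. The 4 fibroblast markers stayed at or below 1.38 FPKM (summed 0.13 to 1.45) and the 3 endothelial markers at or below 1.47 FPKM (summed 0.42 to 1.62), although none of these genes was at 0 in every library. Of the 5 leukocyte markers analysed, 3 stayed at or below 1 FPKM, and the summed level of 40.2 to 231 FPKM came mainly from CD68, a lysosomal protein that epithelial lines also express. DYNC1LI1 had levels of 23.7, 5.1 and 3.04 FPKM (siCON, siDYN-1, siDYN-2) in NCI-H1975 and of 16.3, 2.42 and 1.22 FPKM in HCC827. It fell with siDYN-1 (-2.18 ± 0.16, adjusted p = 0.0406) and with siDYN-2 (-2.79 ± 0.16, adjusted p = 0.00574). In bulk RNA, fewer cells of a kind and less RNA per cell cannot be told apart.

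**Figure D1:**
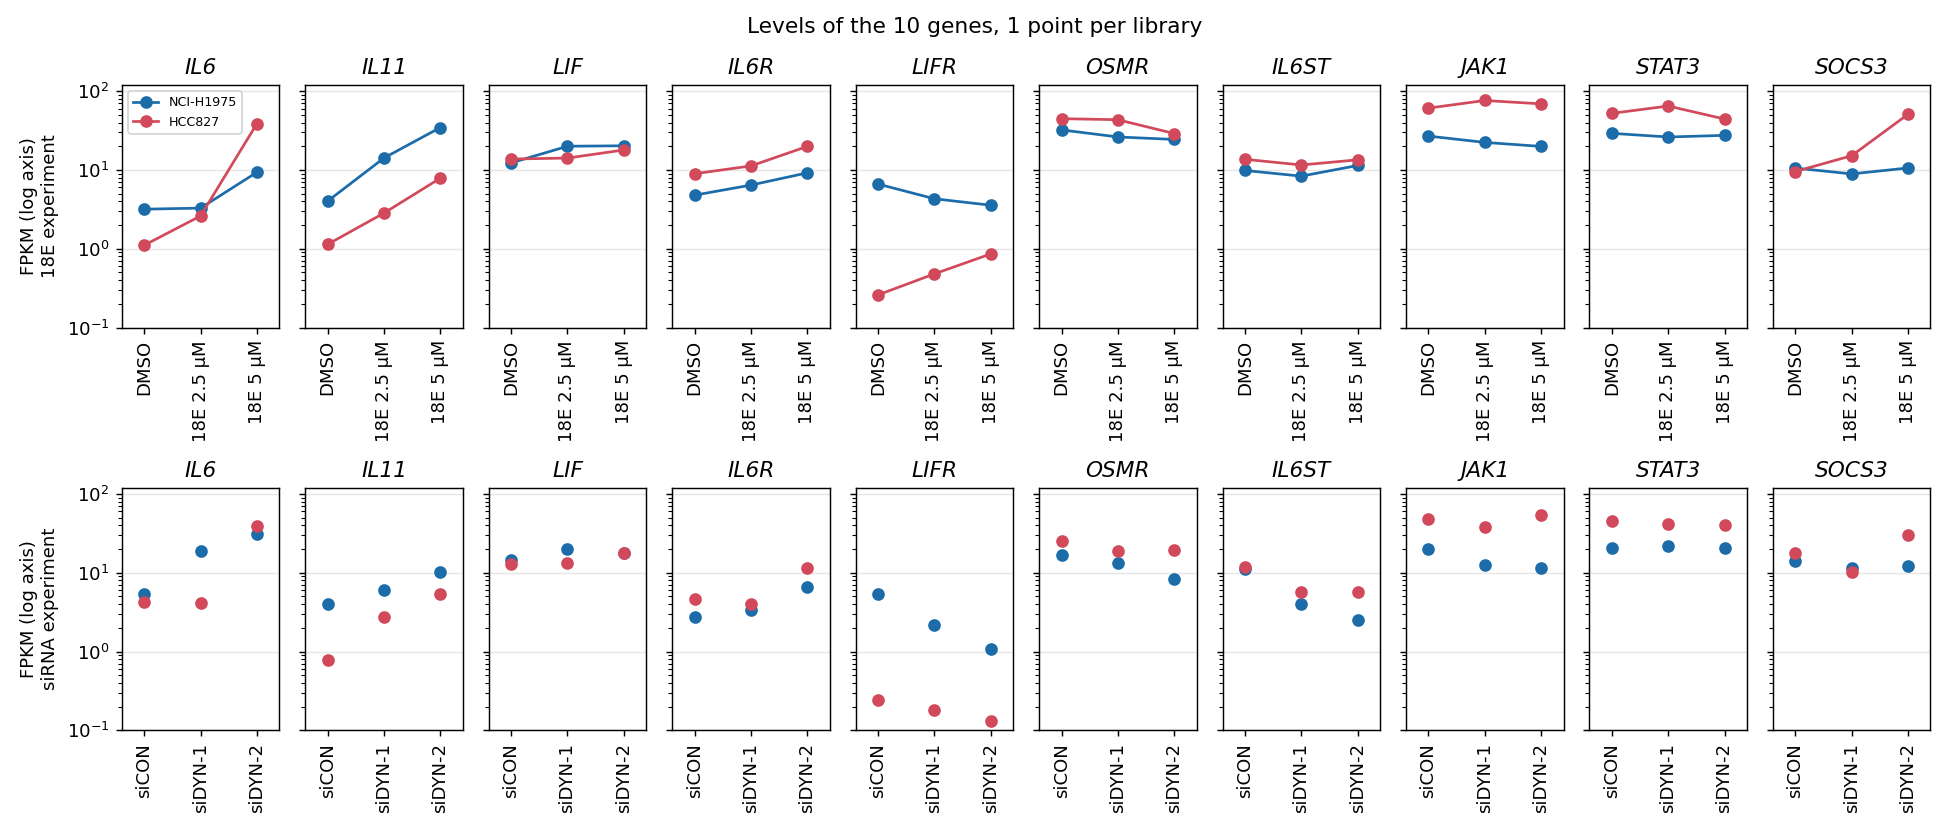
FPKM of each of the 10 genes in each of the 12 libraries on a log axis, with the 18E experiment above and the siRNA experiment below, and 1 point per library (blue NCI-H1975, red HCC827). Lines join the doses of a cell line. IL6 and IL11 are highest at 5 µM in both lines, IL6ST is below siCON with both siRNAs in both lines, and SOCS3 departs from its control at 5 µM in HCC827, where it is 50.9 FPKM.

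IL6, the acute-phase cytokine that names the family, was 3.18 FPKM with DMSO, 3.28 with 2.5 µM and 9.35 with 5 µM of 18E in NCI-H1975. In HCC827 the corresponding levels were 1.11, 2.61 and 38.6 FPKM. The 5 µM library was the highest of each line, and in NCI-H1975 the 2.5 µM library was level with DMSO. On the log2 scale the difference at 5 µM was 1.31 in NCI-H1975 and 4.23 in HCC827, with a fitted change of 2.77 ± 0.66 (SE, n = 2 lines, unadjusted p = 0.0064, limma adjusted p = 0.105). At 2.5 µM the fitted change was 0.40 ± 0.66 (adjusted p = 0.966). The fitted value at 5 µM was 4.05 without the NCI-H1975 library at 5 µM and 1.49 without the HCC827 library at 5 µM. Without the DMSO library it was 3.69 for that of NCI-H1975 and 1.85 for that of HCC827. Each of these fits leaves 1 library in a group, so only the size of the change is given. Settings that kept all libraries gave IL6 an adjusted p of 0.0877 or more.

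In the siRNA experiment IL6 had 5.43 FPKM after siCON, 18.9 FPKM after siDYN-1 and 31.2 FPKM after siDYN-2 in NCI-H1975. In HCC827 its levels were 4.23, 4.14 and 38.7 FPKM. The HCC827 library with siDYN-1 was therefore at its control, and the other 3 siDYN libraries were above theirs. Fitted over both siRNAs the change was 1.71 ± 0.73 (unadjusted p = 0.0526, adjusted p = 0.198). It was 2.38 without HCC827 siDYN-1, the library at its control, and 1.12 without HCC827 siDYN-2. Fitted for siDYN-2 alone, IL6 rose by 2.62 ± 0.48 on the log2 scale (limma adjusted p = 0.0241, higher in 2 of 2 lines). For siDYN-1 alone the change was 0.80 ± 0.48 (adjusted p = 0.325), and the direct difference between the siRNAs was 1.82 ± 0.48 (adjusted p = 0.116).

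IL6 lies on chromosome 7 from 22725884 to 22732002 (GRCh38, GENCODE 29), plus strand, with up to 6 exons in a transcript, and the antisense gene AC073072.1 and the protein-coding gene STEAP1B overlap it on the opposite strand. Use of strand in the counting is not given in the sources used here, so reads of these genes and of IL6 cannot be told apart where they overlap. By the same annotation LIF, IL6R, IL6ST and LIFR also have antisense RNA genes on the opposite strand.

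IL11, a cytokine known for acting on stromal and epithelial cells, was 4.03 FPKM with DMSO, 14.2 with 2.5 µM and 34.6 with 5 µM in NCI-H1975. In HCC827 it was 1.14, 2.84 and 7.87 FPKM. IL11 was ordered by dose in both lines, and at 5 µM it was 8.58 times its control in NCI-H1975 and 6.90 times in HCC827. The fitted change was 2.44 ± 0.24 at 5 µM (unadjusted p = 8.29e-05, adjusted p = 0.0901) and 1.22 ± 0.24 at 2.5 µM (unadjusted p = 0.00289, adjusted p = 0.915). The step from 2.5 to 5 µM was 1.22 ± 0.24 (unadjusted p = 0.00293, adjusted p = 0.411). When 1 library was left out, the fitted change of IL11 at 5 µM ran from 2.06 to 2.82. IL11 passed the adjusted threshold with a pseudocount of 0.1 (adjusted p = 0.0466). With the other alternatives that kept all libraries its adjusted p ran from 0.0777 to 1.0.

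With siRNA, IL11 levels were 4.01, 5.95 and 10.2 FPKM in NCI-H1975. In HCC827 it was 0.77, 2.73 and 5.34 FPKM. All 4 siDYN libraries were above the control of their line, and siDYN-2 was above siDYN-1 in both lines. The change was 1.14 ± 0.30 over both siRNAs (unadjusted p = 0.00748, adjusted p = 0.106). With siDYN-2 alone IL11 rose by 1.501 ± 0.20 (adjusted p = 0.0179, higher in 2 of 2 lines), and with siDYN-1 alone the change was 0.77 ± 0.20 (adjusted p = 0.0932). IL11 (GRCh38 chromosome 19, 55364389 to 55370463, minus strand, up to 5 exons) had no overlapping gene in the annotation.

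LIF, the leukaemia inhibitory factor, was the most abundant of the 3 ligands in 8 of the 12 libraries and varied least. In NCI-H1975 it was 12.3 FPKM with DMSO, 20.0 with 2.5 µM and 20.3 with 5 µM, and in HCC827 13.8, 14.2 and 17.9 FPKM. In the siRNA libraries it was 14.4, 20.0 and 17.9 FPKM in NCI-H1975, while HCC827 had 12.8, 13.2 and 17.9 FPKM. Each of the 8 treated libraries was above the control of its line, by 0.04 to 0.68 on the log2 scale. The fitted changes were 0.52 ± 0.20 at 5 µM (unadjusted p = 0.0436, adjusted p = 0.178), 0.35 ± 0.20 at 2.5 µM (adjusted p = 0.917) and 0.31 ± 0.17 with siDYN (adjusted p = 0.273), and none passed. LIF spans 30240447 to 30246851 on the minus strand of chromosome 22 with up to 3 exons.

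IL6R encodes the private receptor of IL-6. In NCI-H1975 it was 4.79 FPKM with DMSO, 6.43 with 2.5 µM and 9.19 with 5 µM, and in HCC827 8.96, 11.3 and 19.9 FPKM. Its level was ordered by dose in both lines. The fitted change at 5 µM was 0.94 ± 0.17 (unadjusted p = 0.00186, adjusted p = 0.1). It was 1.08 without the NCI-H1975 library at 5 µM and 0.80 without the HCC827 library at 5 µM. Settings that kept all libraries gave an adjusted p of 0.0784 or more. After siRNA treatment IL6R was 2.73, 3.39 and 6.51 FPKM in NCI-H1975, while HCC827 had 4.67, 4.04 and 11.3 FPKM. The siDYN-2 library was above control in both lines, and the siDYN-1 library was above control in NCI-H1975 and below it in HCC827.

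Over both siRNAs the IL6R change was 0.55 ± 0.38 (adjusted p = 0.385). With siDYN-2 alone IL6R rose by 1.07 ± 0.17 (adjusted p = 0.0209, 2 of 2 lines). With siDYN-1 alone the value was 0.03 ± 0.17 (adjusted p = 0.924), and the direct difference between the siRNAs, 1.03 ± 0.17, just missed the threshold (adjusted p = 0.0578). IL6R spans 154405193 to 154469450 on the plus strand of chromosome 1 with up to 10 exons.

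IL6ST, which encodes gp130, was 9.85 FPKM with DMSO, 8.35 with 2.5 µM and 11.4 with 5 µM in NCI-H1975. In HCC827 the levels were 13.7, 11.6 and 13.4 FPKM. The 18E libraries lay on both sides of their controls, and the fitted change was 0.09 ± 0.16 at 5 µM (adjusted p = 0.753; -0.02 with libraries scaled to equal FPKM totals) and -0.22 ± 0.16 at 2.5 µM (adjusted p = 0.923). After siRNA its levels were 11.1, 4.06 and 2.48 FPKM in NCI-H1975, while HCC827 had 11.7, 5.71 and 5.66 FPKM. All 4 siDYN libraries were below the control of their line, as were those of 25.6% of the genes tested. The change over both siRNAs was -1.23 ± 0.22 (unadjusted p = 0.000862, adjusted p = 0.0879).

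Taken alone, siDYN-2 gave -1.36 ± 0.22 for IL6ST, which fell (adjusted p = 0.0203, 2 of 2 lines), and siDYN-1 gave -1.09 ± 0.22 (adjusted p = 0.0648, lower in 2 of 2 lines). The siRNAs differed from each other by -0.28 ± 0.22 (adjusted p = 0.51). IL6ST spans 55935095 to 55994993 on the minus strand of chromosome 5 with up to 18 exons. Because IL6R and IL6ST went in opposite directions with siDYN-2, the ratio of their FPKM within a library differed from control more than either gene did. IL6R over IL6ST was 0.246, 0.835 and 2.63 in the siRNA libraries of NCI-H1975, and for HCC827 these ratios were 0.400, 0.708 and 2.00. With DMSO, 2.5 µM and 5 µM of 18E the ratio was 0.486, 0.770 and 0.806 in NCI-H1975, while HCC827 had ratios of 0.656, 0.972 and 1.48. All 8 treated libraries had a higher ratio than the control of their line, a value that multiplying a library by a constant does not alter.

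LIFR, the receptor chain that pairs with gp130 for LIF, was 6.62, 4.31 and 3.57 FPKM with DMSO, 2.5 µM and 5 µM in NCI-H1975, while HCC827 had 0.26, 0.48 and 0.86 FPKM. The siRNA experiment gave 5.35, 2.15 and 1.07 FPKM in NCI-H1975, while HCC827 had 0.24, 0.18 and 0.13 FPKM. LIFR therefore passed the filter of 1 FPKM through NCI-H1975 alone, and its HCC827 values are low enough that the log2(FPKM + 1) scale compresses them. The fitted change of LIFR was -0.09 ± 0.32 at 5 µM (adjusted p = 0.876; 0.27 with a pseudocount of 0.1) and -0.71 ± 0.30 with siDYN (unadjusted p = 0.0522, adjusted p = 0.197). The siDYN value was -0.10 without the NCI-H1975 siCON library and -1.31 without the HCC827 siCON library. Within NCI-H1975 the difference was -0.74 at 5 µM, -1.01 with siDYN-1 and -1.62 with siDYN-2. With siDYN-2 alone the fitted change was -0.88 ± 0.33 (adjusted p = 0.108). Its adjusted p ran from 0.0667 to 0.906 over the alternatives that kept all libraries. It was larger without the HCC827 siCON library (-1.48) or the HCC827 siDYN-2 library (-1.38). It was smaller without the NCI-H1975 siCON library (-0.27) or the NCI-H1975 siDYN-2 library (-0.37).

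OSMR, the signalling chain of the oncostatin M receptor, was the highest of the 4 receptor chains in every library. It was 32.2, 26.2 and 24.4 FPKM with DMSO, 2.5 µM and 5 µM in NCI-H1975, while HCC827 had 44.8, 43.4 and 29.01 FPKM. Its siRNA levels were 16.7, 13.4 and 8.27 FPKM in NCI-H1975, while HCC827 had 25.2, 18.7 and 19.3 FPKM. All 8 treated libraries were below the control of their line. The fitted changes of OSMR were -0.50 ± 0.18 at 5 µM (unadjusted p = 0.0317, adjusted p = 0.157) and -0.50 ± 0.20 with siDYN (unadjusted p = 0.0423, adjusted p = 0.178). Neither passed. The 5 µM value was -0.67 without the NCI-H1975 library at 5 µM and -0.33 without the HCC827 library at 5 µM. Settings that kept all libraries gave an adjusted p of 0.1 or more at 5 µM. With siDYN-2 alone OSMR had -0.65 ± 0.19 (adjusted p = 0.0615) and passed with quantile normalization (-0.68, adjusted p = 0.0489). The siDYN-2 value was -0.96 without the HCC827 siDYN-2 library and -0.34 without the NCI-H1975 siDYN-2 library. LIFR spans 38474963 to 38608354 (minus strand, up to 20 exons) and OSMR 38845858 to 38945596 (plus strand, up to 18 exons), both on chromosome 5, and the 3′ end of OSMR overlaps RICTOR on the opposite strand.

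JAK1, the kinase bound to gp130, was higher in HCC827 than in NCI-H1975 in every library of both experiments. With DMSO, 2.5 µM and 5 µM it was 26.9, 22.4 and 19.9 FPKM in NCI-H1975, while HCC827 had 61.0, 76.2 and 69.0 FPKM. Across the siRNA libraries it was 19.8, 12.6 and 11.5 FPKM in NCI-H1975, while HCC827 had 47.8, 37.5 and 53.3 FPKM. JAK1 was lower than control in all 4 treated libraries of NCI-H1975 and higher in 3 of 4 of HCC827. The fitted changes were -0.12 ± 0.20 at 5 µM (adjusted p = 0.719) and -0.38 ± 0.20 with siDYN (adjusted p = 0.273). The siDYN value was -0.09 without the NCI-H1975 siCON library and -0.67 without the HCC827 siCON library. With siDYN-2 alone it was -0.29 ± 0.22 (adjusted p = 0.363). That value was -0.66 without the HCC827 siDYN-2 library and 0.0857 without the NCI-H1975 siDYN-2 library. Alternatives that kept all libraries gave an adjusted p of 0.244 to 0.999.

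STAT3, the transcription factor downstream of gp130, differed from its control by at most 0.30 on the log2 scale, rounded, in the 8 treated libraries. It was 29.2, 26.2 and 27.5 FPKM with DMSO, 2.5 µM and 5 µM in NCI-H1975, while HCC827 had 52.3, 64.8 and 44.3 FPKM. The levels after siRNA were 20.6, 21.7 and 20.9 FPKM in NCI-H1975, while HCC827 had 45.4, 41.2 and 40.2 FPKM. The HCC827 library at 2.5 µM was the furthest from its control. The fitted changes were -0.16 ± 0.20 at 5 µM (adjusted p = 0.616), 0.08 ± 0.20 at 2.5 µM (adjusted p = 0.974) and -0.05 ± 0.13 with siDYN (adjusted p = 0.808). These are transcript levels and say nothing of STAT3 phosphorylation, through which the protein is activated. JAK1 spans 64833229 to 64966504 on chromosome 1 (minus strand, up to 25 exons), and STAT3 42313324 to 42388568 on chromosome 17 (minus strand, up to 24 exons).

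SOCS3, the feedback inhibitor and a STAT3 target, was 10.6, 8.91 and 10.6 FPKM with DMSO, 2.5 µM and 5 µM in NCI-H1975. In HCC827 it was 9.56, 15.2 and 50.9 FPKM. The lines had similar levels with DMSO and separated at 5 µM, where the log2 change was 0.00 in NCI-H1975 and 2.30 in HCC827. The fitted change at 5 µM was 1.15 ± 0.51 (unadjusted p = 0.0679, adjusted p = 0.214). It depended on which library was left out. The value was 0.21 without the HCC827 library at 5 µM and 2.09 without the NCI-H1975 library at 5 µM. Without the DMSO library it was 1.93 for that of NCI-H1975 and 0.37 for that of HCC827. Settings that kept all libraries gave an adjusted p of 0.205 or more. Between the lines, SOCS3 differed in its response to 18E by 1.57 ± 0.96 (unadjusted p = 0.162, adjusted p = 0.999).

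After siRNA treatment SOCS3 was 14.1, 11.4 and 12.3 FPKM in NCI-H1975, while HCC827 had 18.0, 10.1 and 30.1 FPKM. The siDYN-1 libraries were below control in both lines, and with siDYN-2 the lines went apart. The fitted change of SOCS3 was -0.13 ± 0.37 over both siRNAs (adjusted p = 0.842), -0.53 ± 0.31 with siDYN-1 (adjusted p = 0.314) and 0.26 ± 0.31 with siDYN-2 (adjusted p = 0.556). In NCI-H1975 with siDYN-2, IL6 was thus 2.33 above control on the log2 scale and SOCS3 -0.19 from it. SOCS3 spans 78356778 to 78360077 on the minus strand of chromosome 17 with up to 2 exons.

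**Figure D2:**
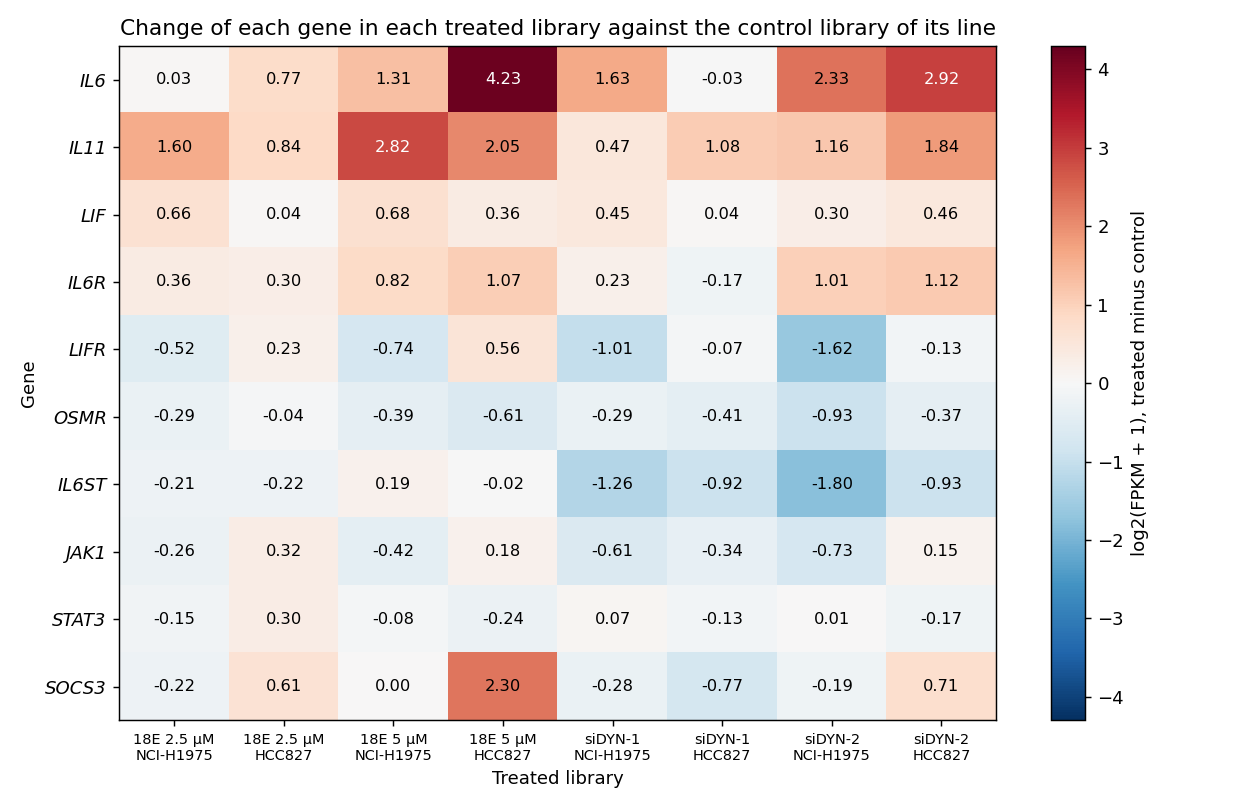
Differences of log2(FPKM + 1) between each treated library (columns, ordered by treatment and line) and the control library of its line for each of the 10 genes (rows); red is higher and blue lower than control. IL11 and LIF are positive and OSMR is negative in all 8 columns, and IL6ST lies between -1.80 and -0.92 in the 4 siDYN columns.

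Counted over the 10 genes, none passed the adjusted threshold of 0.05 at 5 µM, where 0.00837% of the 11953 genes tested did (1 gene). None passed at 2.5 µM (0.0% of all genes) or with both siRNAs pooled (0.0% of 11718 genes). At an unadjusted p under 0.05, 4 members were higher at 5 µM (IL6, IL11, LIF and IL6R) against 10.0% of all genes, and 1 was lower (OSMR) against 16.8%. At 2.5 µM 1 was higher (IL11) against 3.25% and none was lower against 2.01%. With the pooled siRNAs 1 was higher (IL11) against 12.6% and 2 were lower (IL6ST and OSMR) against 13.4%. At least 2-fold higher in both lines at 5 µM were IL6 and IL11, against 1.07% of all genes.

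For siDYN-1 alone none of the 10 genes passed the adjusted threshold (0.7% of all genes). IL6ST (adjusted p = 0.0648) and IL11 (adjusted p = 0.0932) were the nearest to it. For siDYN-2 alone 4 passed, IL6, IL11 and IL6R upward and IL6ST downward, where 18.1% of all genes passed. These 4 calls kept their side of the threshold with a pseudocount of 0.1, quantile normalization, equal FPKM totals and no variance trend. All 4 were lost without the filter on low values (adjusted p 0.0725 to 0.0885) and without the line term (0.616 to 0.639). Without the NCI-H1975 siCON library IL6 (adjusted p = 0.0759), IL6ST (0.0704) and IL6R (0.0808) were lost and IL11 was not (0.0137). In the direct comparison of siDYN-2 with siDYN-1 none of the 10 passed (0.606% of all genes did), and at an unadjusted p under 0.05 there were 4 (IL6, IL11, IL6R and SOCS3) against 20.9% of all genes.

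**Figure D3:**
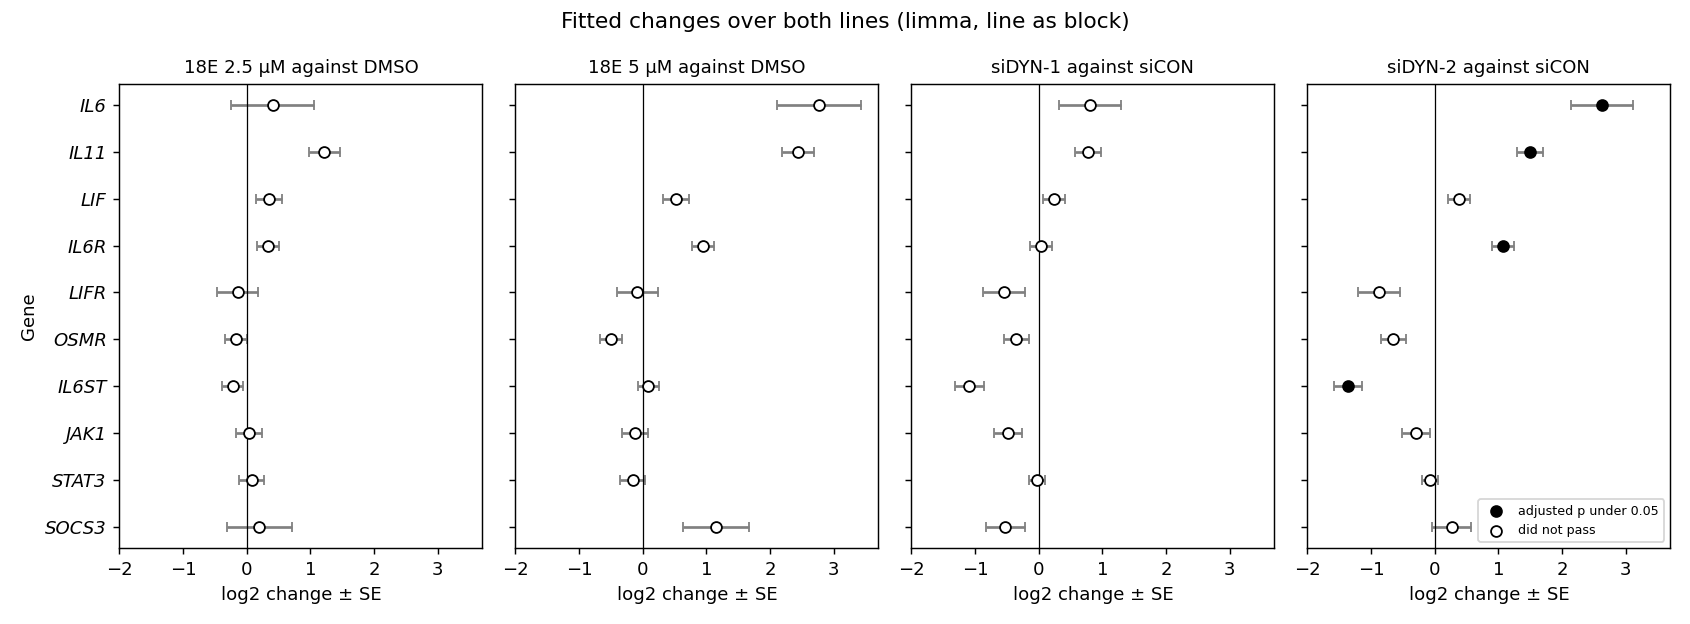
Fitted log2 changes over both lines with their standard errors (limma, line as a block) for 18E at 2.5 µM and 5 µM against DMSO and for each siRNA against siCON; filled points passed an adjusted p of 0.05. The filled points are IL6 (2.62), IL11 (1.501), IL6R (1.07) and IL6ST (-1.36) with siDYN-2.

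By direction alone, IL6, IL11, LIF and IL6R were above control in all 4 libraries with 18E, as were 17.8% of the genes tested, and OSMR was below control in all 4, as were 23.8%. IL11 and LIF were above control in all 4 siDYN libraries, as were 24.9% of genes. IL6ST, LIFR and OSMR were below it in all 4, as were 25.6%. The median change of the 3 ligands was 2.44 at 5 µM, 0.40 at 2.5 µM and 1.14 with siDYN. The 4 receptor chains had medians of -0.00, -0.16 and -0.60, and all genes tested had -0.09, 0.00 and 0.01. The receptor median at 5 µM was 0.06 with quantile normalization and -0.08 with equal FPKM totals, so it had no stable sign.

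The step from 2.5 to 5 µM, fitted directly, passed the adjusted threshold for none of the 10 genes and for 0.0% of all genes. At an unadjusted p under 0.05 it held for IL6 (2.37 ± 0.66, adjusted p = 0.411), IL11 and IL6R (0.61 ± 0.17, adjusted p = 0.411), against 11.8% of all genes. The difference between the lines in their response passed for no member and for 0.0% of all genes with 18E, and likewise for 0.0% with siDYN. At an unadjusted p under 0.05 the count was 1 of 10 with 18E against 1.72% of all genes, and 1 of 10 with siDYN against 1.52%. The gene was LIFR each time, and nothing is read from it, since LIFR was tested through its NCI-H1975 levels alone. In HCC827 LIFR was at 54.2% of control with siDYN-2, which the log2(FPKM + 1) scale gives as -0.13. For IL6 the difference of HCC827 minus NCI-H1975 was 1.83 ± 1.99 with 18E, which the 2 doses standing in as replicates could not resolve.

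In level, 4 of the 10 genes did not overlap between the lines in the 18E experiment, namely LIFR (higher in NCI-H1975) and IL6ST, JAK1 and STAT3 (higher in HCC827), where 55.3% of all genes did not overlap. In the siRNA experiment these were LIFR, OSMR, JAK1 and STAT3, against 49.1% of all genes. LIFR passed the filter through NCI-H1975 alone in both experiments, so its place in these counts is not read as a result.

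**Figure D4:**
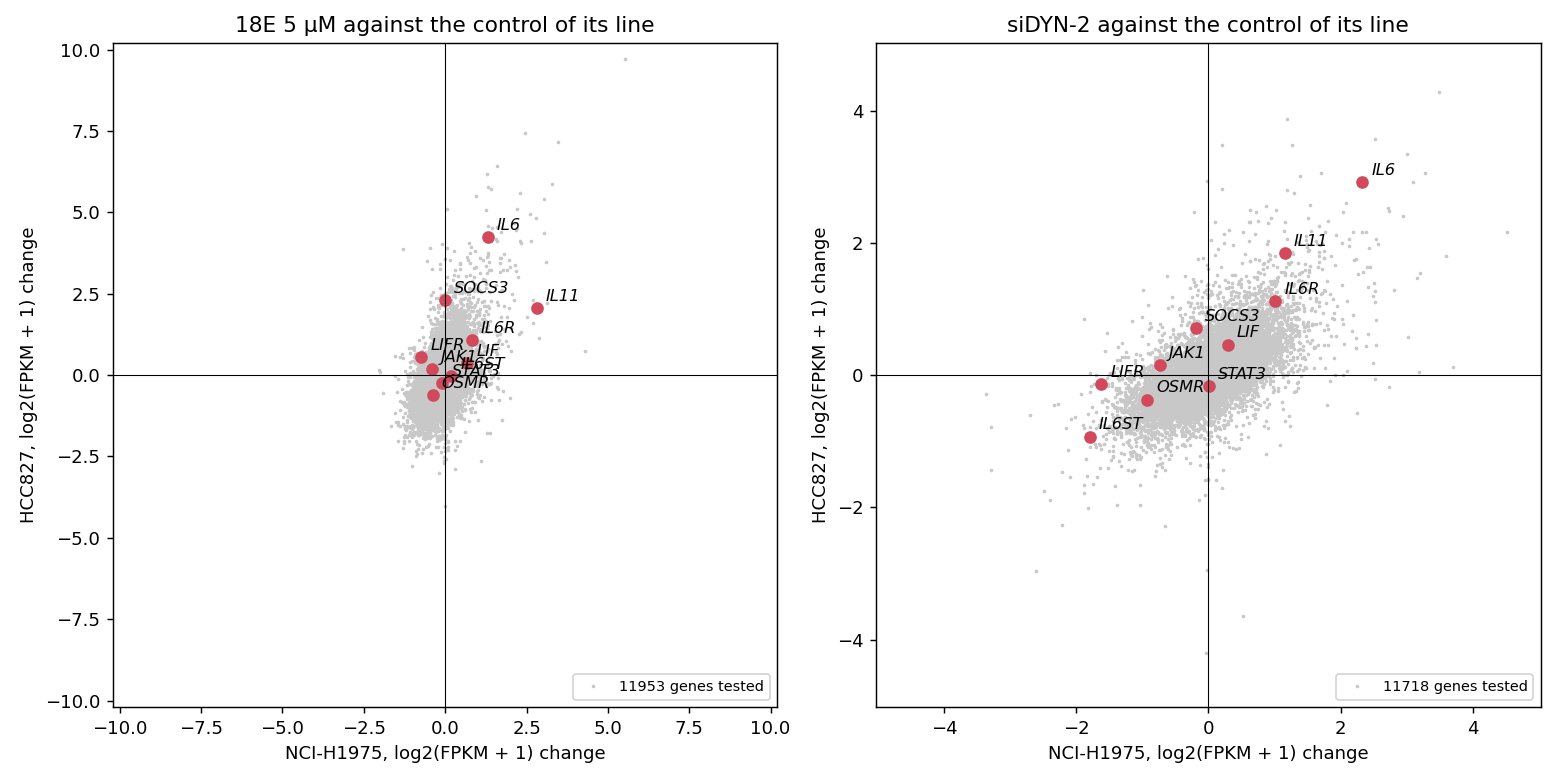
Change of each tested gene in HCC827 (vertical) against its change in NCI-H1975 (horizontal) for 18E at 5 µM (left, 11953 genes) and siDYN-2 (right, 11718 genes), with the 10 genes in red and both axes in log2(FPKM + 1). IL6 and IL11 lie at the upper right of both panels, and SOCS3 at 5 µM lies on the vertical axis (0.00 in NCI-H1975, 2.30 in HCC827).

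Of 8 further ligands of the family, CLCF1 and EBI3 passed the filter in each experiment. CLCF1, a cytokine that acts through the CNTF receptor, was 16.6 to 16.8 FPKM in NCI-H1975 and 23.6 to 26.5 FPKM in HCC827 with DMSO or 18E. In the siRNA experiment it was 9.37, 10.1 and 14.3 FPKM in NCI-H1975, while HCC827 had 8.17, 9.1 and 14.3 FPKM, and it rose with siDYN-2 (0.65 ± 0.14, adjusted p = 0.0299). EBI3, a subunit of IL-27 and IL-35, was 0.55, 1.19 and 1.46 FPKM and 2.18, 4.53 and 5.23 FPKM in the same libraries, and it also rose with siDYN-2 (0.82 ± 0.16, adjusted p = 0.0256). Both genes were above control in all 4 siDYN libraries, as were 24.9% of the genes tested. With siDYN-2 18.1% of all genes passed in either direction. OSM, the ligand of OSMR, was at most 0.03 FPKM in any library, and CTF1 at most 0.15 FPKM.

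Of 4 further receptor genes, IL11RA, IL27RA and IL31RA passed the filter with 18E and IL11RA and IL27RA with siRNA, and none passed the adjusted threshold. IL11RA, the private receptor of interleukin-11, was 1.21, 1.38 and 1.7 FPKM with DMSO, 2.5 µM and 5 µM in NCI-H1975, while HCC827 had 0.43, 0.36 and 0.26 FPKM. Levels in the siRNA experiment were 0.95, 1.6 and 2.92 FPKM in NCI-H1975, while HCC827 had 0.19, 0.52 and 0.41 FPKM (0.51 ± 0.21, unadjusted p = 0.0451, adjusted p = 0.183). IL11RA was thus below IL11 in every library. In the siRNA experiment it passed the filter of 1 FPKM only through the siDYN libraries of NCI-H1975, where it was high. Its siDYN test is therefore not read as a change. IL27RA had a fitted change of 0.33 ± 0.17 with siDYN (adjusted p = 0.275), and IL31RA of 0.44 ± 0.24 at 5 µM (adjusted p = 0.287).

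Among 7 tested further JAK and STAT genes of 9, none had an unadjusted p under 0.05 at 5 µM, and all 7 fitted changes were negative (median -0.27), as were 6984 of the 11953 fitted changes of all genes (median -0.09). STAT6, STAT5B and STAT4 had values of -0.34, -0.27 and -0.38. With siDYN the median was 0.21. STAT5A, a STAT of cytokine and growth factor receptors, was 1.53, 3.66 and 3.51 FPKM in the siRNA libraries of NCI-H1975 and 2.04, 2.83 and 4.72 FPKM in HCC827. STAT5A rose with siDYN-2 (0.87 ± 0.20, adjusted p = 0.0339), the 1 of 7 that passed, where 18.1% of all genes did.

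Of 16 negative regulators, all tested, 1 was higher and 2 were lower at an unadjusted p under 0.05 at 5 µM (median -0.09; 0.02 with quantile normalization), beside 10.0% and 16.8% of all genes. With the pooled siRNAs 1 was higher and 6 were lower (median -0.31), beside 12.6% and 13.4% of all genes. SOCS1, a JAK inhibitor related to SOCS3, was the higher 1 in both: 0.69, 1.03 and 1.69 FPKM with DMSO, 2.5 µM and 5 µM in NCI-H1975, while HCC827 had 5.18, 5.47 and 14.2 FPKM (0.98 ± 0.24, adjusted p = 0.11). At 5 µM SOCS1 was above control by 0.67 or more on the log2 scale in both lines. SOCS3 was above it in HCC827 (2.30) and level with it in NCI-H1975 (0.00). The SOCS1 levels in NCI-H1975 lay near the filter of 1 FPKM. With siDYN-2, 6 of the 16 passed, beside 18.1% of all genes: SOCS1 rose (0.70 ± 0.15, adjusted p = 0.0299), and SOCS5, SOCS7, PIAS1, PIAS3 and PTPN11 fell. PIAS3, which binds STAT3 and blocks its DNA binding, was 22.9, 11.1 and 7.4 FPKM in the siRNA libraries of NCI-H1975 and 15.4, 10.1 and 8.58 FPKM in HCC827 (siDYN-2 -1.14 ± 0.20, adjusted p = 0.0216). PTPN11, which encodes the phosphatase SHP2 recruited to gp130, had -0.76 ± 0.17 at 5 µM (adjusted p = 0.104) and fell with siDYN-2 (-0.68 ± 0.17, adjusted p = 0.0422). For the rest named by rule the values were 0.47 for SOCS2 and -0.71 for PTPRJ at 5 µM, and -0.40 for SOCS6 with siDYN.

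Of 8 genes for receptor shedding and adaptors, 1 was lower at 5 µM at an unadjusted p under 0.05 (median -0.37), beside 16.8% of all genes, and 4 were lower with the pooled siRNAs (median -0.19), beside 13.4%. ADAM10, a protease that sheds receptors of this family, was 22.6 FPKM with DMSO and 14.2 with 5 µM in NCI-H1975, while HCC827 had 33.6 and 14.6 FPKM (-0.89 ± 0.25, unadjusted p = 0.0138, adjusted p = 0.122). With siDYN-2 ADAM10 fell by 0.56 ± 0.15 on the log2 scale (adjusted p = 0.047), as did the adaptor GAB1 by 0.71 ± 0.18 (adjusted p = 0.0448), 2 of the 8 beside 18.1% of all genes. ADAM17, which sheds IL6R, had a value of -0.34 ± 0.13 with the pooled siRNAs (adjusted p = 0.173), and the exchange factor SOS1 of -0.55 ± 0.16 (adjusted p = 0.114). At 5 µM the values of GAB1, GRB2 and ERAP1 were -0.41, -0.34 and -0.85.

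Of 36 genes listed as STAT3 targets, 30 were tested with 18E: 6 were higher and 7 lower at 5 µM at an unadjusted p under 0.05 (median -0.29), beside 10.0% and 16.8% of all genes. Of the 30 fitted changes 21 were negative, and 15 genes were lower and 8 higher in both lines. Of all 11953 genes, 6984 had a negative fitted change, 4881 were lower in both lines and 3053 were higher in both. FOS, an AP-1 subunit, was 4.04 FPKM with DMSO and 15.6 with 5 µM in NCI-H1975, while HCC827 had 3.71 and 98.3 FPKM (3.06 ± 0.60, adjusted p = 0.102). MYC, a growth regulator, was 107 and 241 FPKM, and 51.6 and 159 FPKM (1.39 ± 0.17, adjusted p = 0.1). LRG1, an acute-phase glycoprotein, went the other way in both lines, from 32.1 to 11.7 FPKM and from 29.2 to 9.11 FPKM (-1.48 ± 0.36, adjusted p = 0.107), and so did the mucin MUC1 (-1.71 ± 0.38, adjusted p = 0.104). With siDYN 32 were tested, with 6 higher and 4 lower (median 0.12), beside 12.6% and 13.4% of all genes. With siDYN-2 alone 3 of the 32 rose and 2 fell, a share no higher than the 18.1% of all genes.

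Those that rose with siDYN-2 were CEBPB (1.11 ± 0.17, adjusted p = 0.0191), the acute-phase gene SAA2 (1.45 ± 0.32, adjusted p = 0.0328) and the protease inhibitor SERPINA3 (1.94 ± 0.41, adjusted p = 0.0303). Those that fell were HIF1A, the hypoxia factor (-1.25 ± 0.22, adjusted p = 0.0232), and the cyclin CCND1 (-0.76 ± 0.14, adjusted p = 0.0243). CEBPB, a transcription factor first described as a regulator of IL6, was 28.1, 71.3 and 68.2 FPKM in the siRNA libraries of NCI-H1975 and 63.0, 101 and 124 FPKM in HCC827. All 4 siDYN libraries were above their control, as were those of 24.9% of the genes tested. SAA2 shares near-identical sequence with SAA1, so the split of reads between them is uncertain. With siDYN-1 alone the complement gene C3 passed (1.36 ± 0.14, adjusted p = 0.0406), 1 of 32 beside 0.7% of all genes. C3 did not rise with siDYN-2 (-0.13 ± 0.14, adjusted p = 0.522) and did not pass with the siRNAs pooled (0.62 ± 0.51, adjusted p = 0.467).

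The last list held regulators of IL6 transcription, most of them inducers, along with NFKBIA and TNFAIP3, which inhibit NF-kB signalling and are themselves NF-kB targets. At 5 µM 8 of 15 tested genes were higher and none lower at an unadjusted p under 0.05, beside 10.0% and 16.8% of all genes, with a median of 0.82 against -0.09 for all genes. With the pooled siRNAs 5 of 16 were higher and none lower, beside 12.6% and 13.4%, with a median of 0.43 against 0.01. The inhibitor TNFAIP3 was among the higher genes in both, and NFKBIA with the pooled siRNAs. ATF3, a stress-induced bZIP factor, was 5.36, 13.03 and 60.8 FPKM with DMSO, 2.5 µM and 5 µM in NCI-H1975, while HCC827 had 6.48, 42.8 and 434 FPKM (4.57 ± 0.56, adjusted p = 0.1). JUN, the main AP-1 subunit, was 20.3, 33.8 and 45.5 FPKM and 36.0, 58.3 and 175 FPKM (1.69 ± 0.31, adjusted p = 0.1). Both were ordered by dose in both lines, as were ATF4 (0.82 ± 0.16, adjusted p = 0.102) and the NF-kB subunit RELB (1.31 ± 0.26, adjusted p = 0.102). These genes were named for their large change of 1 sign at 5 µM in both lines, which partly fixes that order. How many of all genes were ordered by dose was not counted, for these genes or for IL11 and IL6R, so no dose response is read from it.

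With siDYN-2 alone 6 of the 16 rose and none fell, beside 18.1% of all genes, and 2 of the 6 were the NF-kB inhibitors. ATF3 was 5.0, 7.0 and 30.6 FPKM in the siRNA libraries of NCI-H1975 and 5.88, 8.19 and 20.4 FPKM in HCC827 (siDYN-2 2.02 ± 0.22, adjusted p = 0.017). JUN was 17.7, 29.1 and 63.7 FPKM, and 33.4, 27.7 and 57.2 FPKM (1.28 ± 0.26, adjusted p = 0.0285). These inhibitors, TNFAIP3 and NFKBIA, rose by 1.27 ± 0.27 (adjusted p = 0.0312) and 0.98 ± 0.18 (adjusted p = 0.0236). TNF and ATF4 made up the 6. In HCC827 JUN, like IL6, was not above control with siDYN-1. With the pooled siRNAs RELB and NFKB2 had values of 0.51 and 0.56 and did not pass. Of all 11718 genes 1209 rose and 915 fell with siDYN-2, with a median of 0.03. The lists of IL6 regulators and STAT3 targets were chosen with earlier results of these data known, so their direction is not independent evidence.

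**Figure D5:**
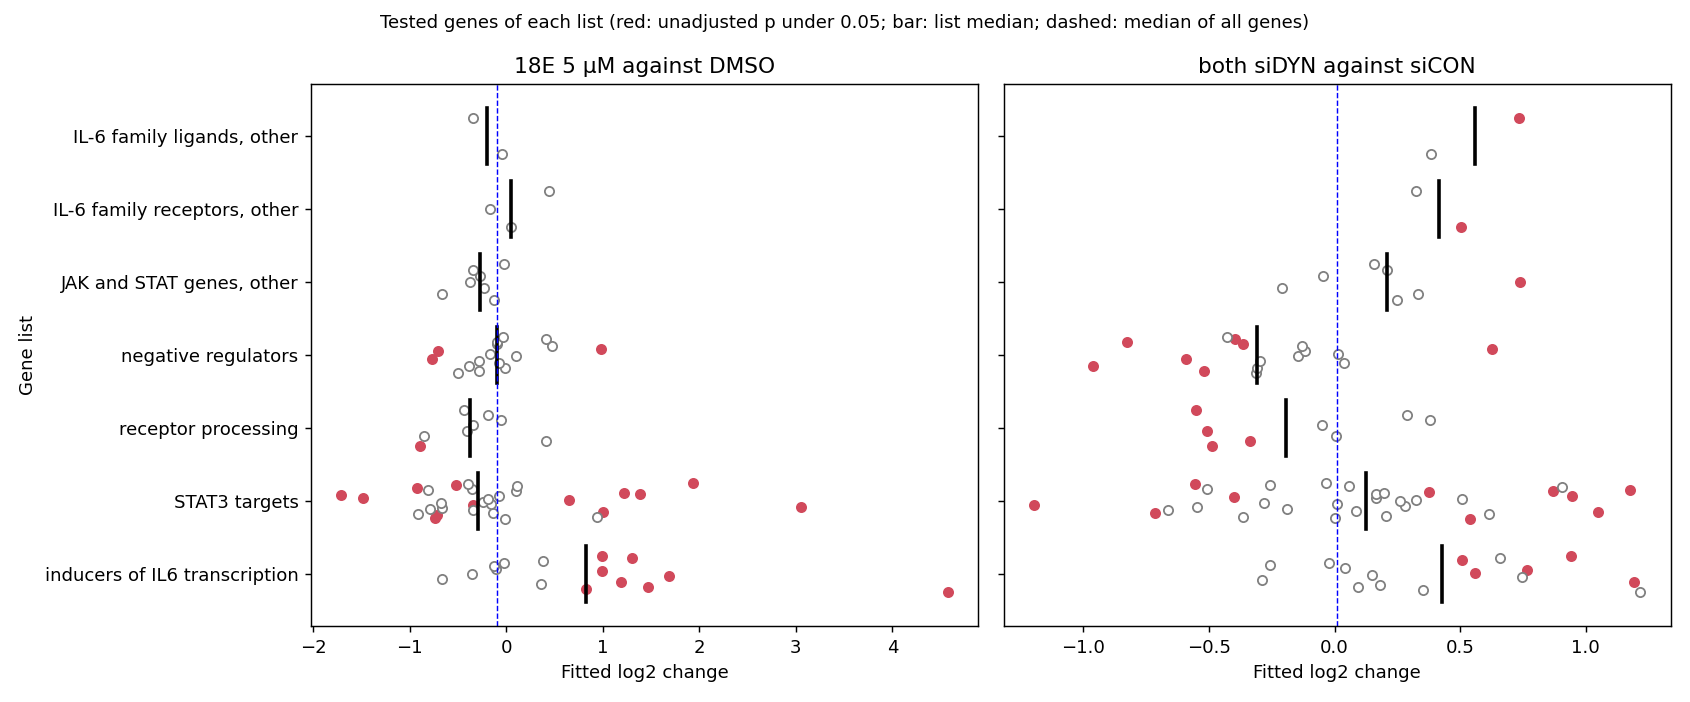
Fitted log2 change of each tested gene of the 7 further lists at 5 µM of 18E (left) and with both siRNAs pooled (right); red points had an unadjusted p under 0.05, black bars are list medians and the dashed line is the median of all genes. The list plotted as inducers of IL6 transcription, which includes 2 NF-kB inhibitors, has a median of 0.82 at 5 µM and of 0.43 with siDYN, and the STAT3 targets spread to both sides.

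The genes whose 8 changes were nearest to those of a member, by Euclidean distance among 11449 genes tested in both experiments, are a description of these libraries only. For IL6 they were PRR20G (distance 1.53), RHOB (1.86) and TUBB2A (1.98), for IL11 UPP1 (1.21), TM4SF19 (1.59) and SDCBP2 (1.81), and for LIF ESS2 (0.40), SLC35G2 (0.42) and PSMA6 (0.46). For SOCS3 they were BCL6 (0.69), IMPA1 (0.96) and IL15 (0.96). BCL6, a transcriptional repressor and listed STAT3 target, had changes of -0.21 in NCI-H1975 and 2.10 in HCC827 at 5 µM, close to the 0.00 and 2.30 of SOCS3. PRR20G belongs to a family of near-identical copies, so its values are uncertain.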

How the data were processed

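Per the labels' protocols, Trizol was used to extract the RNA and a TruSeq kit to make the libraries. The files as deposited by the authors hold 1 FPKM value per gene symbol and library, and the unit comes from the column names, per the file headers. The submitters' processing notes name Bowtie 0.12.2 and the builds mm8, a mouse build, and GRCh38.p12, without a role. For the counting tool, and for whether it used strand, the answer is not given in the sources used here. Lines with missing values were left out (40 and 20 of 16800 and 17462).

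From these values log2(FPKM + 1) was computed, genes reaching 1 FPKM in 2 or more libraries of a table were kept, and limma 3.58.1 in R 4.3.3 was fitted to all of them with a variance trend, the line as block (same-line libraries are the pairs) and Benjamini-Hochberg adjustment. The 18E fit had 2 residual degrees of freedom and the siRNA fit, with both siRNAs pooled as the main test, had 3. The fits were tested on made-up data with known changes. The members and the gene lists were chosen with earlier results of these data known. Besides the members and DYNC1LI1, up to 4 genes per list and experiment were named, those with the largest smallest change among libraries of 1 sign, and the 3 genes nearest to each of 4 members. Genes named as passing with 1 siRNA beyond this rule, and marker, unexpressed or untested genes, were chosen after their values were seen. Genes of the lists missing from a table (IL27, FGA, SAA1, CRP and HP with 18E, IL31 with siRNA) were not analysed here.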

Additional observations from a re-analysis of the deposited data

Results flagged for a closer look

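LIFR went opposite ways in the lines with 18E, below control in both treated NCI-H1975 libraries and above it in both treated HCC827 libraries, and HCC827 minus NCI-H1975 was 1.03 on the log2 scale. Its HCC827 levels, 0.26 to 0.86 FPKM, lay below the filter that LIFR passed through NCI-H1975 alone, so no test is read from this difference. JAK1 was likewise lower in NCI-H1975 and higher in HCC827 with both doses, with a difference of 0.58 (limma interaction adjusted p = 0.999). STAT3 was higher than control in both siDYN libraries of NCI-H1975 and lower in both of HCC827, with a difference of -0.20 (adjusted p = 1.0). Neither of the differences of JAK1 and STAT3 passed the test.

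A pair of listed genes were too low to be tested with 18E and were expressed in 1 library. IL31, a ligand that signals through IL31RA and OSMR, was listed at 0 with DMSO in both lines and was 0.57 FPKM with 2.5 µM and 25.75 FPKM with 5 µM in HCC827, against 0.05 FPKM with 5 µM in NCI-H1975. TNF, an inducer of IL6, was listed at 0 with DMSO in both lines and was 7.04 FPKM with 5 µM in HCC827, against 0.11 FPKM in NCI-H1975.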

How the results depend on the processing

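Of 500 alternative values of the members, 441 kept direction and side of the threshold, 11 lost a call, 24 gained one and 24 changed sign. Part of the 441 was fixed in advance. IL6 at 5 µM, for example, stayed at 2.77 without the filter, the variance trend, the line term or a 2.5 µM library. No member had passed at either dose or with pooled siRNAs, so there no call could be lost. The 441 is therefore not read as a measure of stability. The count of genes called at 5 µM (1) was 16 with a pseudocount of 0.1, 0 with quantile normalization, without the filter, with equal totals, without the variance trend and with no replicate block, and 34 to 4520 with 1 library left out (4520 without NCI-H1975 at 5 µM). With 1 library left out it was 0 to 26 at 2.5 µM, 0 to 3478 for the dose step (3478 without NCI-H1975 at 5 µM) and 0 to 128 for the pooled siRNAs (128 without HCC827 siDYN-1). The pooled count of 0 was 82 with siDYN-1 and 2124 with siDYN-2. That of siDYN-2 was 0 with no filter or no replicate block, and 219 (without NCI-H1975 siCON) to 2482 with 1 library left out, 1214 without NCI-H1975 siDYN-2. The count of siDYN-2 against siDYN-1 (71) was 33 with equal totals and 0 with no filter. The line difference with siDYN gave 1 gene with a pseudocount of 0.1, and its fits without a control library could not be fitted. Sign changes were seen for IL6ST at 5 µM (-0.0151 with equal totals), LIFR (0.27 at 5 µM and 0.0402 at 2.5 µM with a pseudocount of 0.1), JAK1 at 2.5 µM (-0.0236 with equal totals) and SOCS3 (0.26 with siDYN-2 alone). With 1 library left out, values at 5 µM ran from -0.019 to 0.19 for IL6ST, -0.60 to 0.43 for LIFR, -0.41 to 0.17 for JAK1 and -0.35 to 0.0305 for STAT3. At 2.5 µM they ran from -0.51 to 1.32 for IL6, -0.66 to 0.37 for LIFR, -0.34 to 0.0114 for OSMR, -0.26 to 0.32 for JAK1, -0.19 to 0.34 for STAT3 and -0.59 to 0.98 for SOCS3. With pooled siRNAs they ran from 1.12 to 2.38 for IL6, 0.28 to 0.84 for IL6R, -1.31 to -0.10 for LIFR, -0.62 to -0.35 for OSMR, -0.67 to -0.09 for JAK1, -0.15 to 0.0431 for STAT3 and -0.46 to 0.17 for SOCS3, and with siDYN-2 from -0.66 to 0.0857 for JAK1, -0.18 to 0.0197 for STAT3 and -0.31 to 0.83 for SOCS3. The fits of siDYN-2 alone under every alternative, and of siDYN-2 against siDYN-1, were chosen after seeing the data. Apart from the fewer samples or genes these settings use, the cause was not tested. Fits with 1 library left out leave 1 library in a group, so calls gained in them are not read as results. Depth is unknown, so low levels such as LIFR in HCC827 carry no stated precision.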
